A study of Mus musculus with 24 samples.

Results

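R-spondins are secreted proteins that strengthen Wnt/β-catenin signalling. They bind the receptors LGR4, LGR5 and LGR6 together with the transmembrane E3 ubiquitin ligases ZNRF3 and RNF43, and so clear these ligases from the cell surface. When the ligases remain in the membrane, they send Frizzled receptors for degradation and the cell responds less to Wnt. In the fetal gonad RSPO1 is known as an ovary-promoting factor, and ZNRF3 is known to restrain Wnt signalling in the XY gonad. The chromatin of this module was examined at its 9 mouse genes, *Rspo1*, *Rspo2*, *Rspo3*, *Rspo4*, *Lgr4*, *Lgr5*, *Lgr6*, *Znrf3* and *Rnf43*. They were taken by name from the 22380 protein-coding genes of the annotation. No measured value entered this rule, but earlier results of these data were known when the genes were chosen.

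Histone marks were profiled by ChIP-seq in supporting cells of the mouse gonad before and after sex determination, to ask which genes carry the active mark H3K4me3, the Polycomb mark H3K27me3, or both. XY and XX progenitor cells were sorted from E10.5 gonads by the SF1-eGFP transgene, Sertoli cells from E13.5 XY gonads by Sox9-CFP, and pregranulosa cells (labelled granulosa) from E13.5 XX gonads by TESM-CFP, a reporter driven by a mutated Sox9 enhancer. The strain background was C57BL/6 x CD1 throughout, and cells were pooled from several embryos. Each population had 2 replicates per antibody (H3, H3K4me3, H3K27me3), 24 samples in all, but both replicates of a mark had been joined into 1 peak list, so the 8 lists carry no spread between replicates. No difference reported here could therefore be tested, and the values of the populations are given side by side.

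The lists hold the positions of called regions and no level of enrichment. They say where a mark was called and how far it extended, and a missing call means that enrichment was not detectable at that depth. Depth differed widely. For H3K4me3, 10162534 tags stood behind the XY progenitor list, 49254553 behind the XX progenitor list and 31104760 behind the Sertoli list. For H3K27me3 the totals were 6470151, 33185400 and 44446456 tags in the same order. The number of tags is not given for pregranulosa cells. Together the H3K27me3 regions covered 90.9 Mb in XY progenitor, 144 Mb in XX progenitor, 158 Mb in Sertoli and 173 Mb in pregranulosa cells, so a wider region in a deeper list cannot be told apart from an effect of depth.

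The populations were checked against marker genes by the same calls. Of 9 Sertoli markers, 7 carried H3K27me3 at the promoter in each of XY progenitor, XX progenitor and pregranulosa cells and 1 (*Cyp26b1*) in Sertoli cells, and *Sox9* itself was free of it only in Sertoli cells. The 7 were not the same genes, as *Nr5a1* carried it only in the progenitors and *Amh* only in pregranulosa cells. Of 7 pregranulosa markers, 7 carried H3K27me3 in both progenitor populations, 6 in Sertoli cells and 4 in pregranulosa cells. It was called in Sertoli and not in pregranulosa cells at 3 of them, and the reverse at 1, the X-linked *Nr0b1*. *Foxl2*, a defining ovarian factor, was called for H3K27me3 in all 4 lists. The study states that the *Foxl2* TSS and gene body do lose the mark in pregranulosa cells, within a locus dense in it. A window of TSS ± 2 kb did not show this in the study either. Promoters of the 6 endothelial markers had H3K4me3 at 1 or 2 genes per population, those of the 6 Leydig markers at 3 to 5, and those of the 5 blood markers found in the annotation at 0 or 1. H3K4me3 was called at 3 to 6 of the 7 germ cell markers, fewest in XY progenitor cells. The part of other cell types in the calls below was not tested.

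A promoter was defined as the window of TSS ± 2 kb on mm9. An overlap of 1 bp or more with a called region counted as a mark, and a promoter with both marks was bivalent. All 9 promoters carried H3K4me3 in all 4 populations. Across 21418 autosomal protein-coding promoters the mark was called at 64.8% in XY progenitor, 66.7% in XX progenitor, 65.5% in Sertoli and 67.0% in pregranulosa cells, and at 62.5% in all 4. H3K27me3 was called at 8 of the 9 promoters in XY progenitor cells, against 23.6% of all promoters, and at 8 in XX progenitor cells, against 22.8%. The same 8 carried it in both, where 21.3% of all promoters did. At E13.5 it was called at 7 of the 9 in Sertoli cells, against 24.2% of all promoters, and at 7 in pregranulosa cells, against 22.1%. Every member promoter with H3K27me3 also had H3K4me3, so the bivalent counts were the same 8, 8, 7 and 7, where 20.9%, 21.4%, 19.2% and 19.6% of all promoters were bivalent.

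The 9 genes fell into 4 groups by these calls. *Rspo1* was bivalent in both progenitor populations and in Sertoli cells, and carried H3K4me3 alone in pregranulosa cells. *Znrf3* had the opposite outcome, being bivalent in both progenitor populations and in pregranulosa cells and carrying H3K4me3 alone in Sertoli cells. Its H3K27me3 call in XX progenitor cells was lost when only the widest 75% of regions were kept. *Lgr4* carried H3K4me3 and no H3K27me3 in any population. The other 6, *Rspo2*, *Rspo3*, *Rspo4*, *Lgr5*, *Lgr6* and *Rnf43*, were bivalent in all 4. In the genome 200 autosomal genes (0.934%) shared all 8 calls with *Rspo1* and 327 (1.53%) with *Znrf3*, each count including the member, whereas 8171 (38.2%) shared those of *Lgr4* and 2997 (14.0%) were bivalent in all 4 populations.

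**Figure D1:**
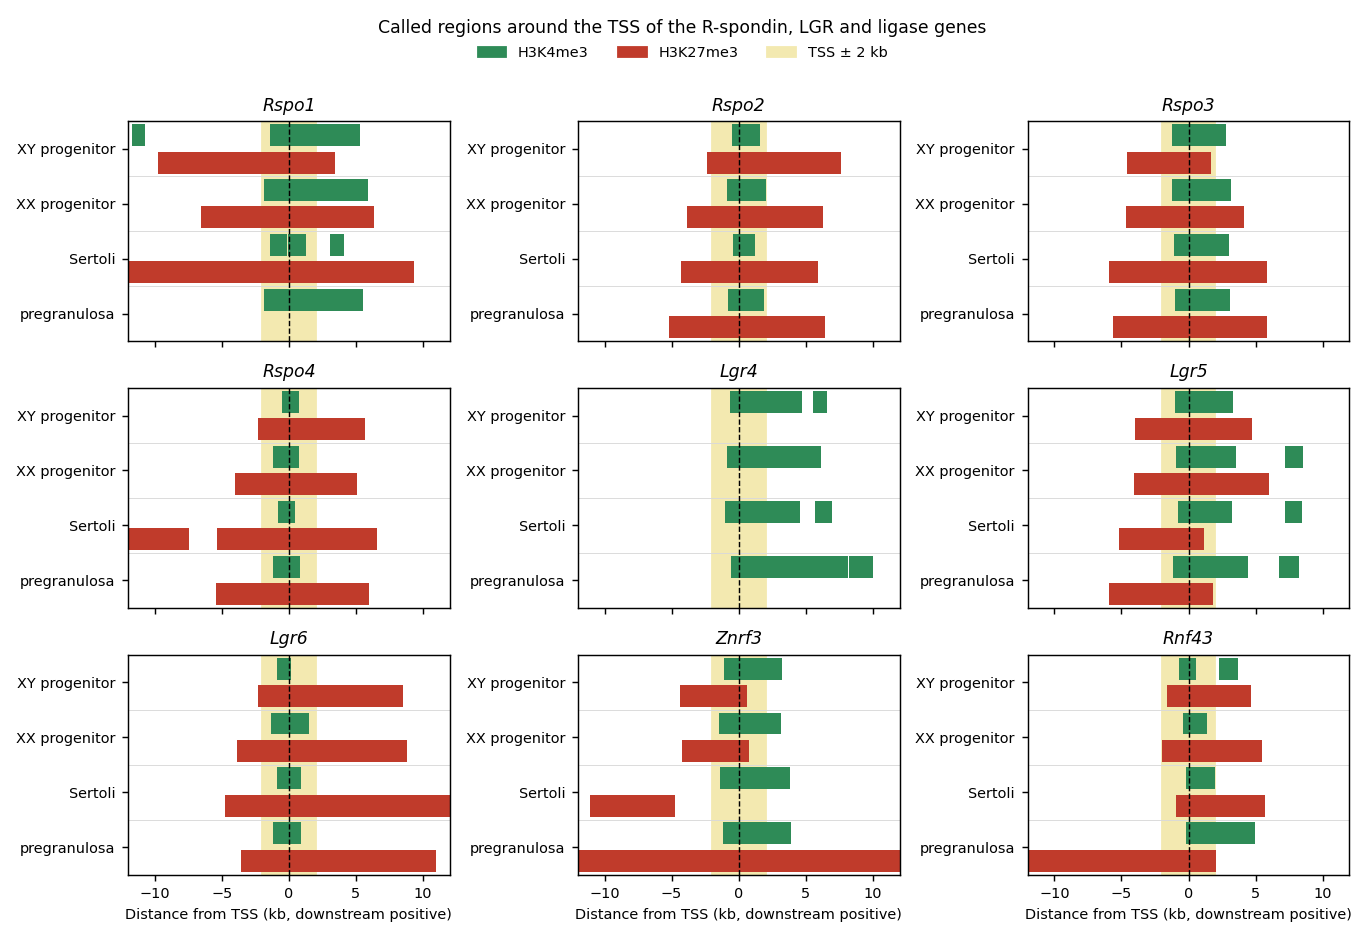
Called regions of H3K4me3 (green) and H3K27me3 (red) around the TSS of each member, by distance from the TSS in kb with downstream to the right, 1 pooled list per bar and the promoter window shaded. H3K27me3 is absent around the *Rspo1* TSS in pregranulosa cells, from the *Znrf3* window in Sertoli cells and from *Lgr4* in all 4 populations, and regions that reach the frame continue beyond it.

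The sequence just before the TSS is shown for *Rspo1*, whose promoter lacked H3K27me3 in pregranulosa cells, and for *Lgr4*, whose promoter lacked it in all 4 populations. Each run is the 250 bases before the TSS on the strand of the gene (mm9), 5′ to 3′, with CpG dinucleotides in capitals. The *Rspo1* run is chr4:124663424-124663673 on the plus strand and holds 22 CpG, and the *Lgr4* run is chr2:109757554-109757803 on the plus strand and holds 10.
Rspo1: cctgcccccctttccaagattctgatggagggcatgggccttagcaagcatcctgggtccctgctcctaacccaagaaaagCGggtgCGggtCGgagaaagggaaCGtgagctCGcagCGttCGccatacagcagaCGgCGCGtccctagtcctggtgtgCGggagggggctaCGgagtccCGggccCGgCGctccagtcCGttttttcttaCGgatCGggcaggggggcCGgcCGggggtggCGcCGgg
Lgr4: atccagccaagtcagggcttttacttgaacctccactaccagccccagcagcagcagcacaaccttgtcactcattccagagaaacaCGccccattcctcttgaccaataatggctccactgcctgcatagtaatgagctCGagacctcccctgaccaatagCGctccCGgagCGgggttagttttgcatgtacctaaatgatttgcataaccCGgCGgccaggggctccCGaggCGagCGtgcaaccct
CpG density was compared over the whole window as the ratio of observed to expected CpG. *Znrf3* had a ratio of 0.791, above 98.6% of promoters, followed by *Lgr4* at 0.601, *Rspo1* at 0.52, *Rspo2* at 0.506 and *Lgr5* at 0.469. The ratio was 0.357 for *Lgr6*, 0.347 for *Rspo3*, 0.337 for *Rnf43* and 0.331 for *Rspo4*, which lie just below the median of all promoters, 0.371. The median of the members was 0.469, close to the median of 0.464 over the promoters bivalent in all 4 populations and of 0.481 over those with H3K4me3 alone in all 4, and well above the 0.155 of promoters with neither mark in any list. *Znrf3*, *Lgr4* and *Rspo1*, which lacked H3K27me3 in at least 1 list, had the highest ratios of the 9, and all lay within the wide range of promoters bivalent in every population, 0.122 to 1.06. They lacked the mark in different lists, and a link between CpG ratio and the mark was not tested.

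**Figure D2:**
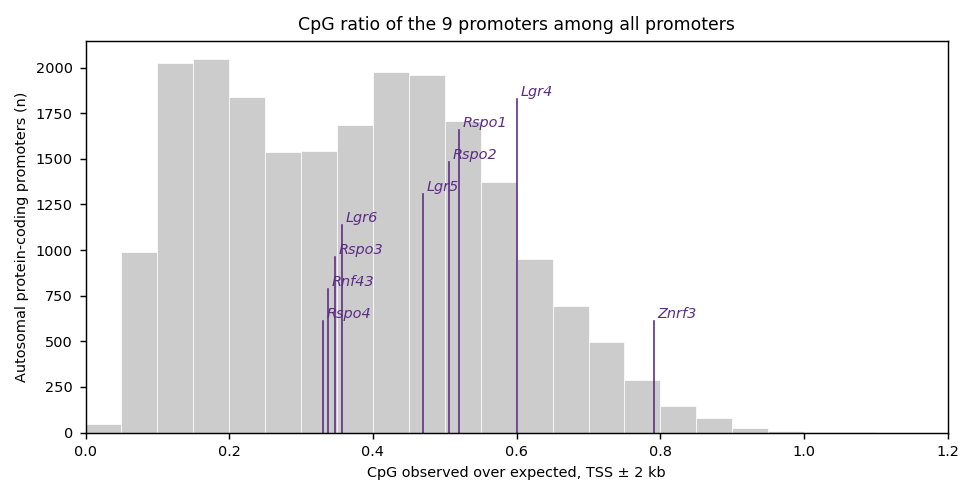
Histogram of the observed over expected CpG ratio in the TSS ± 2 kb window of 21418 autosomal protein-coding promoters (number per bin on the y axis), with the 9 members as vertical lines whose heights only separate the names. *Znrf3* (0.791) sits in the upper tail and *Rspo4*, *Rnf43*, *Rspo3* and *Lgr6* (0.331 to 0.357) just below the median of 0.371.

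The 250 bases before the TSS were also searched on both strands for CTTTGAA and CTTTGAT, the core letters bound by TCF/LEF factors, the nuclear effectors of Wnt signalling. Neither occurred in any of the 9 member promoters, and 1509 of 21418 promoters (7.05%) held at least 1. This says only that these letters are not in this window.

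*Rspo1* (ENSMUSG00000028871.7, chr4:124663674-124686343, plus strand), the R-spondin that promotes ovarian fate, was marked by H3K27me3 in the Sertoli and not in the pregranulosa list. The mark covered the entire window in both progenitor populations and in Sertoli cells, and 0 bp of it in pregranulosa cells. The region over the TSS measured 13144 bp in the XY and 12920 bp in the XX progenitor list, and in the Sertoli list it measured 32622 bp, from 23.3 kb upstream to 9.36 kb downstream of the TSS. In pregranulosa cells the nearest H3K27me3 region lay 81040 bp from the TSS. The whole neighbourhood, and not the promoter alone, was thus free of called H3K27me3 in the pregranulosa list.

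Over the 22670 bp gene, H3K27me3 covered 40.7% in XY progenitor, 56.4% in XX progenitor, 78.5% in Sertoli and 0% in pregranulosa cells. A second region over the 3′ part of the gene, which touches exons, was present in all populations but pregranulosa and began 16.9, 16.2 and 14.2 kb from the TSS in the XY progenitor, XX progenitor and Sertoli lists. Cover was 37.8 percentage points larger in Sertoli than in XY progenitor cells, and 749 of 3927 genes with a marked promoter in both (19.1%) had a difference of at least 20 points in that direction. Counted over exons only, cover was 82.8% in XY progenitor cells, 100% in both XX progenitor and Sertoli cells and 0% in pregranulosa cells. The XY progenitor list was the shallowest of the 3 with known depth, and the part of depth in this difference was not tested.

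H3K4me3 at *Rspo1* ran the other way. It covered 3433, 3851 and 3869 bp of the window in XY progenitor, XX progenitor and pregranulosa cells, in a single region 6715, 7713 and 7405 bp wide, and 2644 bp in Sertoli cells. In Sertoli cells the promoter held 2 narrow regions instead, 1292 and 1352 bp wide, with a short gap just upstream of the TSS. Cover of the gene was 27.7%, 30.3% and 28.8% in the first 3 populations and 9.97% in Sertoli cells. An intronic H3K4me3 region 16.3 to 17.4 kb from the TSS was also called in every population but Sertoli. The Sertoli list was therefore the narrowest of the 4 for H3K4me3 and the widest for H3K27me3 at this gene.

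The primer pair that the study used for ChIP-qPCR at *Rspo1*, gaaactggtcagatgctc and acccaggatgcttgctaa, matched mm9 exactly and spans 134 bp, chr4:124663348-124663481, from 326 to 193 bp upstream of the TSS. This amplicon lies inside H3K4me3 regions in all 4 lists and inside H3K27me3 regions in all but the pregranulosa list. The reverse primer is found, as its reverse complement, in the *Rspo1* run printed above.

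*Rspo2* (ENSMUSG00000051920.6, chr15:42852357-43002364, minus strand), known for its part in limb and lung development, kept the same calls throughout. H3K27me3 covered the whole window in all 4 populations, in a region 10019 bp wide in XY progenitor, 10162 bp in XX progenitor, 10249 bp in Sertoli and 11611 bp in pregranulosa cells. It stayed around the promoter and covered between 3.95% and 5.11% of the 150008 bp gene. H3K4me3 covered 2019 and 1677 bp of the window in XY progenitor and Sertoli cells and 2844 and 2677 bp in XX progenitor and pregranulosa cells. The XX progenitor list rested on more tags than the XY progenitor and Sertoli lists, and the part of depth was not tested. Intronic H3K4me3 was called 34 to 35.5 kb from the TSS in both E13.5 populations, and 123 to 124 kb from it in Sertoli cells.

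*Rspo3* (ENSMUSG00000019880.9, chr10:29172915-29255673, minus strand), needed for vascular and placental development, was also bivalent throughout. H3K27me3 covered 3674 bp of the window in XY progenitor cells and all of it elsewhere. Its region measured 6258 bp in XY progenitor, 8767 bp in XX progenitor, 11782 bp in Sertoli and 11539 bp in pregranulosa cells. The E13.5 populations were almost alike, with 7.10% and 7.11% of the gene covered, and both exceeded the progenitors at 2.02% and 4.96%, but over exons only all 4 were at 26.6%. H3K4me3 covered between 3000 and 3269 bp of the window, the narrowest range among the R-spondins.

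*Rspo4* (ENSMUSG00000032852.3, chr2:151668663-151700404, plus strand), the R-spondin of nail formation, had an identical promoter call in each list but a different gene body in Sertoli cells. H3K27me3 covered the whole window in all 4 populations. Cover of the 31742 bp gene was 17.9% in XY progenitor, 15.9% in XX progenitor, 57.8% in Sertoli and 18.9% in pregranulosa cells. The addition in Sertoli cells came from a pair of adjacent regions from 19.9 to 35 kb, over the 3′ part of the gene and beyond its end, that had no counterpart in the other 3 lists. Of genes with a marked promoter in both, 749 of 3927 (19.1%) had cover at least 20 points larger in Sertoli than in XY progenitor cells. The Sertoli list of this mark was also the deeper of the pair, and the part of depth was not tested. H3K4me3 was narrow, at 1262, 1944, 1288 and 2059 bp of the window in XY progenitor, XX progenitor, Sertoli and pregranulosa cells. As at *Rspo2*, the values of XX cells exceeded those of XY cells at each stage, whereas at *Rspo3* this held at E10.5 only. Cover was larger in XX than in XY progenitor cells at 11729 of 13672 autosomal genes marked in both. Of the lists with known depth, that of XX progenitor cells was the deepest for H3K4me3.

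**Figure D3:**
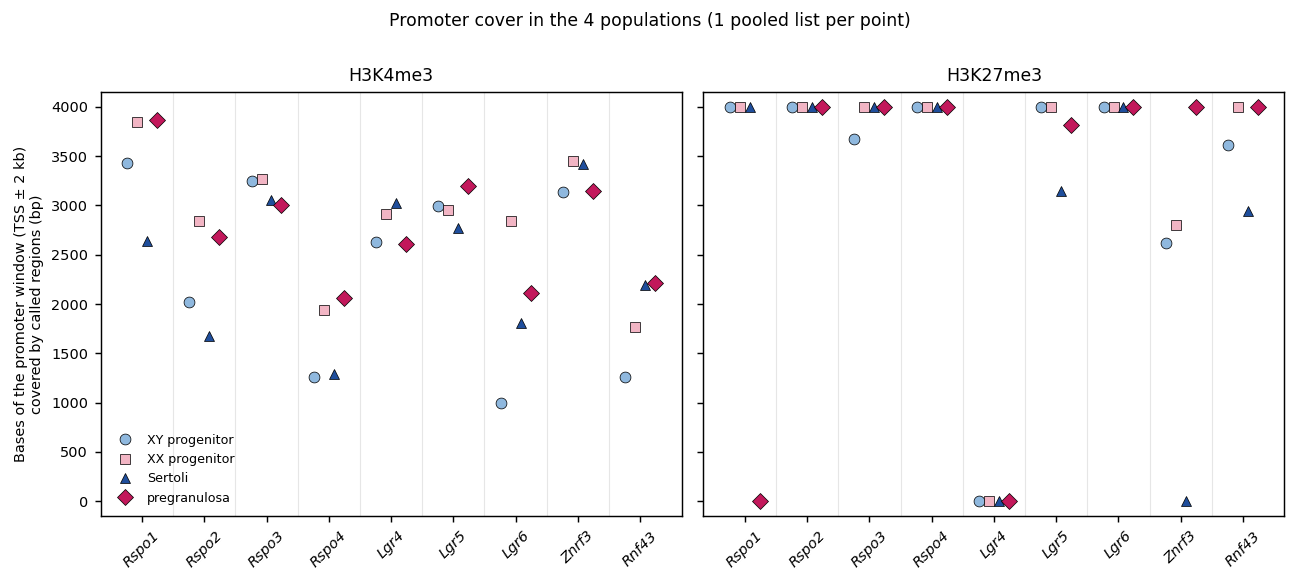
Bases of the promoter window (TSS ± 2 kb) covered by H3K4me3 (left) and H3K27me3 (right) for each member, 1 point per population and no error bars because each list pools its replicates. H3K27me3 points lie near the full window for most genes, at 0 bp for *Rspo1* in pregranulosa, *Znrf3* in Sertoli and *Lgr4* in all 4, whereas H3K4me3 ranges from 1001 to 3869 bp.

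*Lgr4* (ENSMUSG00000050199.7, chr2:109757804-109854414, plus strand), the most widely expressed of the R-spondin receptors, was the only member without H3K27me3 in any list, at the promoter or over the gene. The nearest H3K27me3 region lay 29363 bp from the TSS in XY progenitor cells and 217120, 217306 and 216756 bp from it in XX progenitor, Sertoli and pregranulosa cells. H3K4me3 covered 2633, 2910, 3020 and 2610 bp of the window in XY progenitor, XX progenitor, Sertoli and pregranulosa cells, which sets no population apart.

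Inside the *Lgr4* gene the populations differed more. Beyond the promoter region, 13 separate stretches carried H3K4me3 in at least 1 list, of which 2 were called in XY progenitor, 5 in XX progenitor, 7 in Sertoli and 10 in pregranulosa cells. The stretch 12.8 to 17.6 kb from the TSS was the only one called in all 4. Total cover of the gene was 7.98% in XY progenitor, 20.5% in XX progenitor, 14.7% in Sertoli and 29.1% in pregranulosa cells. In each sex the E13.5 value was above the E10.5 value, but over exons only the order turned in the XX lineage, with 17.2% in XX progenitor and 15.4% in pregranulosa cells. At each stage the XX value was above the XY value, and the lowest value came from the XY progenitor list, the shallowest of the 3 with known depth.

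*Lgr5* (ENSMUSG00000020140.9, chr10:114887367-115024836, minus strand), a Wnt target and stem cell marker in many epithelia, was bivalent in all 4 populations, although the H3K27me3 call in Sertoli cells was lost when each list of the mark was shortened to equal length. H3K27me3 covered the whole window in both progenitors, 3148 bp in Sertoli and 3816 bp in pregranulosa cells. Its region was 8788 and 10070 bp wide in XY and XX progenitor cells and 6367 and 7750 bp in Sertoli and pregranulosa cells. The downstream edge moved from 4.76 and 6.03 kb in the progenitors to 1.15 kb in Sertoli and 1.81 kb in pregranulosa cells, while the upstream edge lay farther out at E13.5, at 5.22 and 5.93 kb against 4.02 and 4.04 kb. The mark was thus placed more upstream in both E13.5 populations than in the progenitors.

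A further H3K27me3 region near the 3′ end of *Lgr5*, 114 to 122 kb from the TSS, was called in both progenitors and in neither E13.5 list. Cover of the gene was accordingly 9.14% and 10% in XY and XX progenitor cells and 0.835% and 1.32% in Sertoli and pregranulosa cells. *Lgr5* was the only member whose H3K27me3 cover was smaller at E13.5 in both sexes. Among all genes with a marked promoter at both stages, cover was smaller in Sertoli than in XY progenitor cells at 753 of 3927 (19.2%) and smaller in pregranulosa than in XX progenitor cells at 978 of 3991 (24.5%). The Sertoli list rested on more tags than the XY progenitor list, and the part of depth was not tested.

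H3K4me3 at the *Lgr5* promoter covered 2998, 2954, 2773 and 3193 bp of the window in XY progenitor, XX progenitor, Sertoli and pregranulosa cells. Inside the gene 8 stretches carried it, 4 of them in XY progenitor and 6 in each of the other populations, and those 92.2 to 96.8 kb and 108 to 111 kb from the TSS were called in all 4. The ChIP-qPCR primers for *Lgr5*, cctctggaccacaggaagt and agaccatgactgcgctctg, matched chr10:115025836-115026227, a stretch from 1391 to 1000 bp upstream of the TSS. This amplicon lies inside H3K27me3 regions in all 4 lists, but was touched by H3K4me3 in the pregranulosa list alone, because the H3K4me3 region of the other 3 lists ended between 772 and 997 bp upstream.

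*Lgr6* (ENSMUSG00000042793.7, chr1:136882925-137001853, minus strand), the third R-spondin receptor, was bivalent throughout, with H3K27me3 over the whole window in each list. The promoter region measured 10822 bp in XY progenitor, 12692 bp in XX progenitor, 45429 bp in Sertoli and 14523 bp in pregranulosa cells. H3K27me3 covered 32.0% and 33.0% of the gene in XY and XX progenitor cells, 79.3% in Sertoli and 55.0% in pregranulosa cells. Over exons only the order of the E13.5 populations turned, with 81.4% in Sertoli and 85% in pregranulosa cells, beside 69.2% and 66.3% in XY and XX progenitor cells.

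The wider H3K27me3 of *Lgr6* at E13.5 lay in the 5′ part of the gene in Sertoli cells, where the promoter region ran to 40.6 kb downstream of the TSS against 8.5 kb in XY progenitor cells, and in the middle of the gene in both populations. A stretch 61.8 to 73.6 kb from the TSS was called in both E13.5 populations and in neither progenitor list, and 1 at 43.9 to 57.9 kb in Sertoli cells alone, whereas those at 75.3 to 97.7 kb and 105 to 121 kb were called in all 4. The difference from the progenitor was 47.3 points in the XY lineage and 22.0 points in the XX lineage. Among genes with a marked promoter at both stages, at least 20 points were reached at 749 of 3927 (19.1%) in the XY lineage. In the XX lineage 284 of 3991 (7.12%) reached them. The Sertoli list rested on more tags than the XY progenitor list, and the part of depth was not tested. H3K4me3 at the promoter was narrower than at the other receptors, with 1001 bp of the window in XY progenitor, 2838 bp in XX progenitor, 1806 bp in Sertoli and 2110 bp in pregranulosa cells. A shorter coding transcript of *Lgr6* starts 87497 bp inside the gene, and the window around that start carried H3K27me3 in all 4 lists and H3K4me3 only in XX progenitor and pregranulosa cells.

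**Figure D4:**
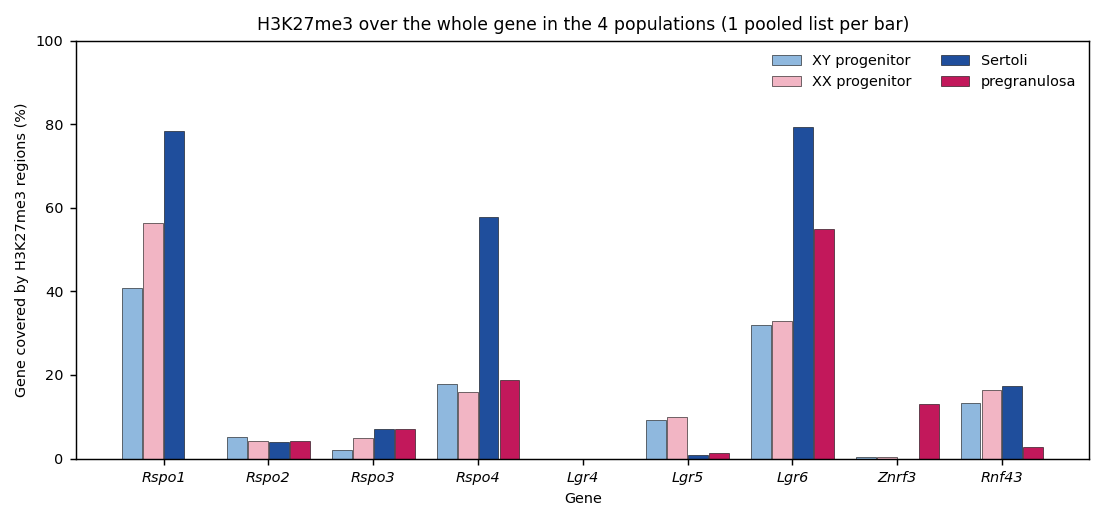
Percent of each member gene covered by H3K27me3 regions, 1 bar per pooled list and population, without error bars. Sertoli bars stand above the rest at *Rspo1* (78.5%), *Rspo4* (57.8%) and *Lgr6* (79.3%), whereas the tallest *Znrf3* bar is that of pregranulosa cells (13.1%, whole gene) and *Lgr4* has none.

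*Znrf3* (ENSMUSG00000041961.7, chr11:5176327-5344850, minus strand) encodes the ligase that limits Wnt signalling in the XY gonad. H3K27me3 covered 2624 bp of its window in XY progenitor, 2800 bp in XX progenitor, 0 bp in Sertoli cells and all of it in pregranulosa cells. In both progenitors the region was 5001 bp wide, the size of a single calling window, and reached from 4.38 and 4.2 kb upstream to 0.623 and 0.799 kb downstream of the TSS. In pregranulosa cells a region of 34366 bp extended from 12.3 kb upstream to 22.0 kb downstream. In Sertoli cells the nearest region stopped 4786 bp upstream of the TSS, outside the window, and no H3K27me3 was called over the gene. In window cover, the Sertoli value thus lay below both progenitor values and the pregranulosa value above them. The progenitor calls rested on a single calling window each, and that of XX progenitor cells was lost with the widest 75% of regions. Calling settings and depth are unknown for the pregranulosa list, so its wider region could not be compared at like settings.

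H3K27me3 covered 0.37%, 0.475%, 0% and 13.1% of the 168524 bp *Znrf3* gene in XY progenitor, XX progenitor, Sertoli and pregranulosa cells. Over exons only it covered 5.83% in both progenitors and in pregranulosa cells alike, and 0% in Sertoli cells. H3K4me3 at the promoter covered 3134, 3447, 3417 and 3143 bp of the window in the same order and was widest at the region level in Sertoli cells, at 5271 bp against 4362 to 5050 bp. Of 11 H3K4me3 stretches inside the gene, those at 27.6 to 30.2 kb and 30.4 to 32.1 kb were called in all but Sertoli cells. Sertoli cells alone had stretches at 14.4 to 16.6 kb, 17.5 to 18.8 kb, 91.6 to 93.0 kb and 142 to 143 kb. Shorter coding transcripts of *Znrf3* start 63107 and 63233 bp inside the gene, and no mark was called in their windows in any list.

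*Rnf43* (ENSMUSG00000034177.8, chr11:87476224-87549041, plus strand), the second ligase and itself a Wnt target, was bivalent in all 4 populations but with shifted H3K27me3 regions. The gene record begins at a transcript with a retained intron, and its coding transcripts start 365, 1552 and 1827 bp downstream, within the same window. Another coding transcript starts 37175 bp downstream, and the window around that start had neither mark in any list. H3K27me3 covered 3611 bp of the window in XY progenitor cells, 2943 bp in Sertoli cells and all of it in both XX populations. The region lay mainly downstream of the TSS in every list but the pregranulosa one, ending at 4.67, 5.50 and 5.72 kb, with widths of 6283, 7505 and 6668 bp. In pregranulosa cells it was 29062 bp wide and lay mainly upstream, from 27 kb before to 2.04 kb after the TSS.

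Cover of the *Rnf43* gene by H3K27me3 was 13.3% in XY progenitor, 16.3% in XX progenitor, 17.4% in Sertoli and 2.80% in pregranulosa cells. A stretch at 44 to 50.4 kb was called in both progenitors alone, and 1 at 54 to 60.9 kb in Sertoli cells alone. H3K4me3 covered 1256 and 1771 bp of the window in XY and XX progenitor cells and 2188 and 2213 bp in Sertoli and pregranulosa cells, so that both E13.5 values were above both E10.5 values. The promoter H3K4me3 region was 5136 bp wide in pregranulosa cells and 1256 to 2188 bp elsewhere. Over the gene H3K4me3 covered 4.47%, 11.5%, 13.8% and 23.7% in XY progenitor, XX progenitor, Sertoli and pregranulosa cells. The pregranulosa list had the largest H3K4me3 and the smallest H3K27me3 cover of the gene. Over exons only, the H3K27me3 contrast was nearly gone, with 31.1% in pregranulosa cells and 32.7% to 34.6% elsewhere.

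**Figure D5:**
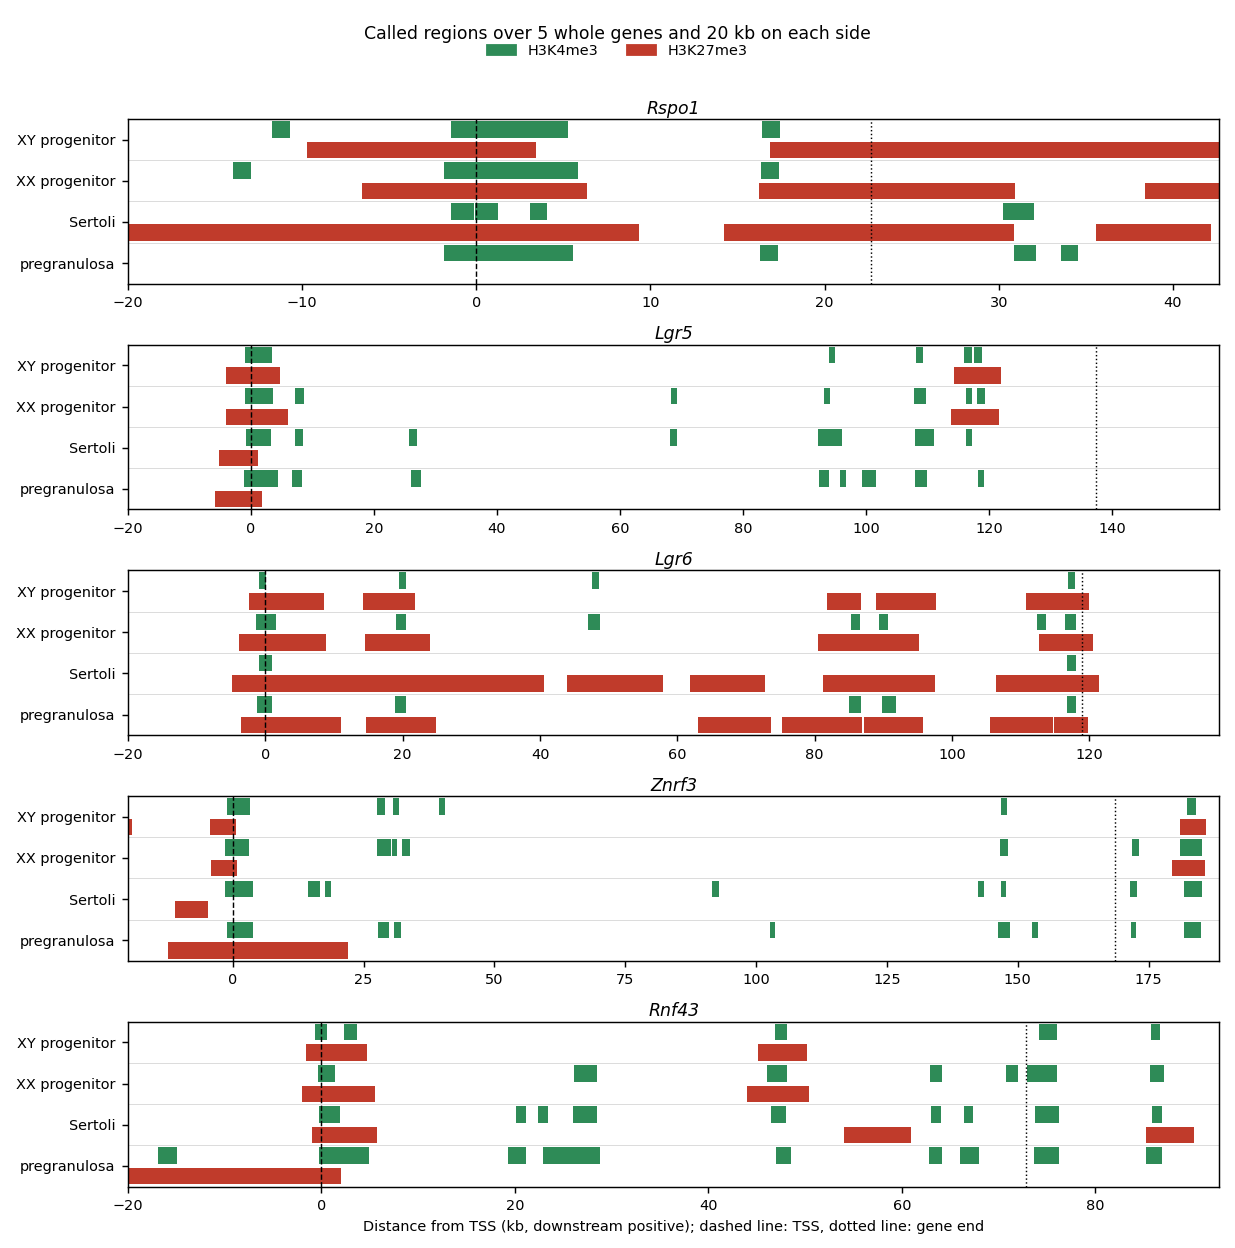
Called H3K4me3 (green) and H3K27me3 (red) regions over the whole of *Rspo1*, *Lgr5*, *Lgr6*, *Znrf3* and *Rnf43* and 20 kb on each side, by distance from the TSS in kb (dashed line, TSS, dotted line, gene end), 1 pooled list per bar. The 3′ region of *Lgr5* at 114 to 122 kb appears only in the progenitors, the wide *Znrf3* region only in pregranulosa cells, and *Lgr6* is most filled in Sertoli cells.

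None of the H3K27me3 regions that held a member promoter contained the TSS of another protein-coding gene. In XY progenitor cells 5 of the 9 windows were covered entirely by H3K27me3, where 15.0% of all promoters were, and the counts were 7 in XX progenitor cells (16.3% of all promoters), 5 in the Sertoli list (17.3%) and 6 in the pregranulosa list (16.3%). The median width of these regions among the members was 8.37, 9.56, 11.8 and 11.6 kb in XY progenitor, XX progenitor, Sertoli and pregranulosa cells, beside 8.05, 8.90, 11.6 and 10.4 kb over all marked promoters. The widest were those of *Rspo1* and *Lgr6* in Sertoli cells and of *Znrf3* and *Rnf43* in pregranulosa cells, which ran from 29062 to 45429 bp. Among marked promoters alone, the whole window was covered at 5 of 8 members and 3203 of 5060 promoters in XY progenitor cells. The counts were 7 of 8 and 3485 of 4894 in XX progenitor, 5 of 7 and 3714 of 5184 in Sertoli, and 6 of 7 and 3483 of 4723 in pregranulosa cells. Most marked promoters were thus covered entirely, among the members and among all genes alike.

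Between the 2 progenitor populations no member differed in any call when all regions were kept. Most calls at all autosomal promoters also agreed. H3K27me3 was called at 5060 of them in XY progenitor and 4894 in XX progenitor cells, and at 4562 in both. For H3K4me3 the counts were 13881 and 14282, with 13672 in both. H3K4me3 covered more of the window in XX than in XY progenitor cells at 8 of the 9 genes, *Lgr5* being the exception. The same held for 11729 of 13672 genes marked in both, and the XX list was much the deeper. H3K27me3 window cover was equal at 6 members, of which *Lgr4* had 0 bp in both, and larger in XX progenitor cells at 3, *Rspo3*, *Znrf3* and *Rnf43*. Of 4562 genes marked in both, it was equal at 2935, larger in XX progenitor cells at 1109 and smaller at 518.

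Spread over the gene was compared where a promoter was marked in both lists. H3K27me3 cover was larger in Sertoli than in XY progenitor cells at 5 of 7 members, against 56.9% of such genes, and larger in pregranulosa than in XX progenitor cells at 5 of 7, against 50.9%. Between the E13.5 populations it was larger in Sertoli cells at 3 of 6 members, *Rspo4*, *Lgr6* and *Rnf43*, against 45.8% of such genes. The members were too few for these shares to be read as like or unlike those of all genes, and the difference was not tested.

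From XY progenitor to Sertoli cells 1 of 8 marked members, *Znrf3*, no longer carried H3K27me3, where 1133 of 5060 promoters (22.4%) did not. From XX progenitor to pregranulosa cells it was again 1 of 8, *Rspo1*, against 903 of 4894 (18.5%). The unmarked member, *Lgr4*, was not called at E13.5 in either lineage, where 7.68% of unmarked promoters became marked in Sertoli and 4.43% in pregranulosa cells. With 1 of 8 in each lineage, the members were too few for these shares to be read as like or unlike those of all promoters. Of the 4110 promoters bivalent in both progenitors, 200 (4.87%) ended as *Rspo1* did, 327 (7.96%) as *Znrf3* did, and 2997 (72.9%) remained bivalent in both E13.5 populations. Read directly between the E13.5 populations, H3K27me3 in Sertoli and not in pregranulosa cells was called at 1 member and at 5.11% of all promoters, and the reverse at 1 member and at 2.96% of all promoters.

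The other genes of the pathway gave a frame for these calls. Of 74 further Wnt genes, H3K27me3 was called at 48 in XY progenitor, 46 in XX progenitor, 47 in Sertoli and 43 in pregranulosa cells, at 35 in all 4 populations and at 20 in none. By role, it marked 16 to 18 of 19 Wnt ligands and 13 or 14 of 15 secreted or membrane-bound antagonists in each population, 6 to 9 of 15 receptors, and 1 of 11 genes of the intracellular relay. Of 12 nuclear factors and feedback genes it marked 3 in the pregranulosa list and 6 in each of the others.

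At E13.5, 7 of these genes carried H3K27me3 in Sertoli but not in pregranulosa cells. They were *Axin2*, a feedback inhibitor and Wnt target, the receptor *Fzd2*, the transcription factors *Sp5*, *Tcf7* and *Tcf7l1*, and the ligands *Wnt4*, which promotes ovarian fate, and *Wnt5b*. Of the 7, *Axin2*, *Sp5*, *Tcf7*, *Wnt4* and *Wnt5b* shared all 8 calls with *Rspo1*. At *Wnt4*, as at *Rspo1*, the whole window was covered in both progenitors and in Sertoli cells, and 0 bp in pregranulosa cells. The reverse was seen at 3 genes, the receptors *Fzd5* and *Fzd9* and the feedback inhibitor *Nkd2*, which all shared the 8 calls of *Znrf3*. Their windows were covered entirely in both progenitors, by 0 bp in Sertoli cells, and in pregranulosa cells by 3768 bp at *Fzd5* and entirely at the other two.

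The 5 other leucine-rich repeat receptors of the LGR family bind glycoprotein or relaxin-type hormones and not R-spondins. H3K4me3 was called at 3 of 5 in XY progenitor, XX progenitor and pregranulosa cells and at 2 in Sertoli cells, and H3K27me3 at 2, 1, 3 and 2 of 5 in XY progenitor, XX progenitor, Sertoli and pregranulosa cells. The promoters of *Fshr* and *Rxfp1* carried neither mark in any list, whereas that of *Tshr* was bivalent in all 4, as those of *Lgr5* and *Lgr6* were.

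Genes with the most similar promoter cover were found among those sharing all 8 calls, by the sum over the 8 lists of the absolute differences in window bases. This search took all protein-coding genes outside the member list, so the pools were not limited to the autosomal genes counted above. Nearest to *Rspo1*, among 199 genes, were *Apoh* at 1045 bp, *Lhx9*, a gonadal transcription factor, at 1337 bp, and *Prkca* at 1513 bp. Nearest to *Znrf3*, among 354 genes, were *Zdhhc2* at 2080 bp, *Cry2* at 2105 bp and *Msi1* at 2168 bp. Nearest to *Lgr5*, among 3047 genes, were *Erbb4* at 856 bp, *Cacng4* at 1235 bp and *Stk10* at 1249 bp, and nearest to *Rnf43* in the same pool were *Myh14* at 1323 bp, *Slc38a5* at 1491 bp and *Kcnh1* at 1556 bp. Likeness here refers only to the extent of called regions.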

How the data were processed

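ChIP-seq of H3, H3K4me3 and H3K27me3 had been run in duplicate in 4 populations (24 samples). The authors trimmed reads with Trim Galore, aligned them with Bowtie (mm9) and ran HOMER findPeaks in histone style against H3, with a size of 1000 bp for H3K4me3 and 5000 bp for H3K27me3. Per the file headers, peaks had at least 4 times the H3 tags at a Poisson p-value of 0.0001. The deposited files are 8 peak lists, each from both replicates joined, and 6 hold a score column that is 1 for every peak, so only positions were used. For the 2 pregranulosa lists, which have no header, settings and depth are not given in the sources used here. H3 had no list of its own.

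Overlapping peaks of a list were joined, because the H3K27me3 lists of 3 populations hold overlapping windows. Genes came from GENCODE release M1 on NCBIM37 (mm9), the build on which all coordinates are given. The TSS was the 5′ end of the gene record. Calls, window cover and gene cover were computed with Python 3.11.15 and NumPy 2.4.6, checked on simulated regions, and drawn with matplotlib 3.10.9. The background was 21418 autosomal protein-coding genes, chosen after the lists had been seen because all 9 members are autosomal. The members, gene lists and rules were chosen with earlier results of these data known. Named genes were all 9 members, every other Wnt gene with H3K27me3 in exactly 1 E13.5 population, and the 3 genes nearest to *Rspo1*, *Lgr5*, *Rnf43* and *Znrf3* in window cover. *Sox9*, *Cyp26b1*, *Nr5a1*, *Amh*, *Foxl2*, *Nr0b1*, *Fshr*, *Rxfp1* and *Tshr*, from the marker and receptor lists, were named after their values were seen. With 1 pooled list per mark and population, no test, interval or p-value was computed.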

Additional observations from a re-analysis of the deposited data

Results flagged for a closer look

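For 12 of 36 measures (2 marks, window cover and gene cover, 9 genes) the difference between E13.5 and the E10.5 progenitor had opposite signs in the XY and XX lineages, 7 of them for H3K4me3 and 5 for H3K27me3. Each lineage has 1 pooled list per stage, so the difference between lineages was not tested, and several of these values are small.

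For H3K27me3, gene cover at *Rspo1* was 37.8 points larger in Sertoli than in XY progenitor cells, and pregranulosa minus XX progenitor was -56.4 points. At *Znrf3* the window difference was -2624 bp in the XY lineage and 1201 bp in the XX lineage, and the gene cover difference was -0.37 and 12.6 points. At *Rnf43* gene cover differed by 4.14 points in the XY and -13.5 points in the XX lineage. At *Rspo2* the values were -1.16 and 0.101 points, with promoter calls alike in all 4 populations.

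For H3K4me3, window cover differed in the XY and XX lineages by -789 and 18 bp at *Rspo1*, 387 and -300 bp at *Lgr4*, -225 and 239 bp at *Lgr5*, 805 and -728 bp at *Lgr6*, and 283 and -304 bp at *Znrf3*. Gene cover differed by 1.5 and -0.126 points at *Rspo3*, and by -0.813 and 3.4 points at *Rspo4*. The XY progenitor list was the shallowest and the XX progenitor list the deepest of the H3K4me3 lists with a known number of tags, and the part of depth was not tested.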

How the results depend on the processing

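No paired analysis was possible because each list joins both replicates, and for the same reason no replicate could be left out. The 12 counts of marked members per population stayed within 1.5 times their value under all 5 alternatives for calls (at least 500 bp of overlap, a window of TSS ± 1 kb, the window of any annotated transcript, the widest 75% of regions of each list, and lists reduced to the length of the shortest list of the mark). Only 2 calls of single members differed: H3K27me3 at *Znrf3* in XX progenitor cells with the widest 75% of regions, and at *Lgr5* in Sertoli cells with lists of equal length. Gene cover measured over exons only moved by more than 1.5 times in 47 of 72 values, and turned several orders, among them that of Sertoli and pregranulosa cells at *Lgr6* for H3K27me3 and of XX progenitor and pregranulosa cells at *Lgr4* for H3K4me3. Regions joined across gaps of up to 1 kb changed none of 30 widths by that much, and gaps of up to 5 kb changed 4, to 81454 bp at *Rspo1*, 20311 bp at *Rspo4* and 77492 bp at *Lgr6* in Sertoli cells and 28467 bp at *Lgr6* in pregranulosa cells. Depth was lowest in the XY progenitor lists among those with known totals, and it is unknown for pregranulosa cells.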
